A study of Rattus norvegicus with 18 samples.

Results

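The genes described here mark B cells and the antibody-secreting plasma cells that arise from them. Cd79a, Cd79b, Ms4a1, Cd22 and Cr2 were grouped as B cell genes, and Jchain, Mzb1 and Pou2af1 as plasma cell genes, though Pou2af1 is shared by B cells and plasma cells. The genes were chosen by name, as every probe set that the array annotation assigns to exactly 1 of these 8 symbols. A probe set is a group of short oligonucleotides on the array that together measure a transcript. Leaving out control probe sets, 12 of 31042 belonged to 7 of the 8 genes, with 5 for Cr2, 2 for Jchain and 1 for each of the others. Cd79a had no probe set named for it here. All 12 probe sets passed the filter on low signal and were among the 21729 tested, which include 11407 named genes.

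The arrays came from male Sprague Dawley rats, an outbred laboratory strain, numbered 1 to 8 and 10, each of which gave 1 array of proximal and 1 of distal colonic mucosa (9 arrays a region). Every rat was fed modified AIN-93G for 10 days and killed 6 h after azoxymethane, a colon carcinogen, was injected under the skin at 15 mg/kg. Both regions carry the treatment, and no array of an untreated rat was used. A stretch of 4 cm of each region was scraped with a microscope slide and 4.5 µg of its RNA was used for an array, so each array measured all cells of a scraping together, and how many lymphoid follicles a scraping held is not recorded in the labels. In such bulk samples, fewer cells of a type and less RNA per cell cannot be told apart. The labels mention 2 allocation groups but not which rat was in which, so the regions are the only groups compared.

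B cells recognise antigen with a membrane antibody that signals through the paired chains Cd79a and Cd79b. Cd22 damps that signal, Cr2 is a complement receptor that strengthens it and is also carried by follicular dendritic cells, and Ms4a1 (CD20) is a surface protein of mature B cells that plasma cells lose. Pou2af1 is a B cell coactivator that works with octamer-binding transcription factors and is needed for germinal centres. Jchain links antibody units into the IgA and IgM polymers that epithelium can carry into the lumen, and Mzb1 is a chaperone of the endoplasmic reticulum that helps antibody folding and secretion. In the colon, B cells are gathered in lymphoid follicles of the mucosa and submucosa, while plasma cells lie scattered through the lamina propria between the crypts.

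The 250 bases before the start of 3 of these genes are shown because the factors that Pou2af1 works with bind the octamer motif ATGCAAAT, and because the plasma cell gene Jchain and the B cell genes Cd22 and Cr2 varied differently over the arrays. They are from RefSeq, assembly GRCr8, printed 5′ to 3′ on the strand of the gene: Jchain at chr14:19822726-19822975 (plus strand), Cd22 at chr1:95259731-95259980 (minus strand) and Cr2 at chr13:109244507-109244756 (minus strand).
Jchain: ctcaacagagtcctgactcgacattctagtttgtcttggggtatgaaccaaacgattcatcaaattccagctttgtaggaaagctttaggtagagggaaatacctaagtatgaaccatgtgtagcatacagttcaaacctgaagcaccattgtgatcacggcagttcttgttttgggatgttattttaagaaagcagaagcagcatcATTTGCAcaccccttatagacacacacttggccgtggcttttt
Cd22: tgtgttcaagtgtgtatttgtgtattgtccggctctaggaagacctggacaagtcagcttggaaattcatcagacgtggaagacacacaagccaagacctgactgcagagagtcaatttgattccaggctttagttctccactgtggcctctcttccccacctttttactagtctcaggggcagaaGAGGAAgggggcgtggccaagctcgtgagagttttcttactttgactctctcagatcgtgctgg
Cr2: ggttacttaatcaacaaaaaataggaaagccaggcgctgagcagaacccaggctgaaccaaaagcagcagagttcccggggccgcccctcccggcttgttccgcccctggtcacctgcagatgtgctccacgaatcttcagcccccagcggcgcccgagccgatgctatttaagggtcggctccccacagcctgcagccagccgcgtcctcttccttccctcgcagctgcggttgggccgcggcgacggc
Capitals mark TGCAAAT, which is 7 letters of the octamer, on the opposite strand in Jchain, and GAGGAA, a core recognised by the myeloid and B cell factor PU.1, in Cd22. All motifs were searched on both strands, and TGCAAAT lies inside ATGCAAAT. Among 33469 promoter windows of this length, 1.56% held the whole octamer, 3.54% held TGCAAAT and 23.3% held GAGGAA. The Jchain match began 43 bases before the gene's start and the Cd22 match 64 bases before it. Neither motif was found in the Cr2 window, and the whole octamer was in none of the 4 windows of these genes that the RefSeq table held, the fourth being that of Cd79a, which held GAGGAA. A match is a description of the sequence and was not tied to any measured binding.

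Levels are given as log2 signal, which is log2 of the deposited intensity plus 16, quantile normalized so that all arrays have the same distribution. On this scale the level of 1 probe set cannot be set against that of another, so each gene was compared with itself between arrays. Trimmed mean intensity ran from 211.2 to 342.4 over the 18 arrays before normalization. All 14 markers of colonic epithelium were measured, and their mean log2 signal was between 12.53 and 12.79 in proximal and between 12.45 and 12.62 in distal arrays. Smooth muscle markers (11 of 11 measured) set 3 arrays apart: their mean log2 signal was 12.17 in the proximal array of rat 3 with at most 8.74 in the other 8, and 9.96 and 9.87 in the distal arrays of rats 3 and 7 against at most 7.88 in the other distal arrays. Results are therefore also given without these 3 arrays where that touches them.

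The B cell genes varied from rat to rat far more than most genes, above all in the proximal colon. Cd79b had a proximal log2 signal with a lowest value of 4.15, a median of 7.40 and a highest value of 9.11. Its 9 proximal arrays lay in separate sets with nothing between 4.68 and 7.40: rats 2, 3, 5 and 8 had 4.21, 4.15, 4.68 and 4.27, and rats 1, 4, 6, 7 and 10 had 7.80, 7.40, 8.76, 8.17 and 9.11. The 4 low values are below 5.54, the mean level at which probe sets were left out as too dim, so they bound the signal of Cd79b from above more than they measure it. The deposited intensities behind them were 2.64, 2.09, 8.66 and 3.48, while the other 5 proximal arrays had 163.8 to 511.9. From the lowest to the highest proximal array the signal differed 31.1-fold on the log2(value + 16) scale, which understates folds at low signal.

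Cr2 showed the same set of low proximal arrays in the probe set that stands for the gene. Its lowest, median and highest proximal log2 signals were 5.29, 8.77 and 9.98. The arrays of rats 2, 3, 5 and 8 had 5.29, 5.72, 5.72 and 6.28, and the next lowest, rat 4, had 8.77. For Ms4a1 the lowest, median and highest proximal values were 5.18, 8.04 and 9.59. Rats 2, 3, 5 and 8 had 5.77, 5.50, 5.18 and 5.92, and the gap above them reached to 8.04 in rat 4. The range over the proximal arrays was 25.9-fold for Cr2 and 21.2-fold for Ms4a1.

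Cd22, the inhibitory receptor, divided the proximal arrays in the same way over a narrower range. Its proximal log2 signal had a lowest value of 7.34, a median of 8.35 and a highest value of 8.88, a range of 2.90-fold. The values of rats 2, 3, 5 and 8 were 7.35, 7.34, 7.77 and 7.54, and the lowest of the other 5 was 8.35 in rat 7. The other 4 probe sets of Cr2 had proximal ranges between 7.21-fold and 12.1-fold, and rats 2, 3, 5 and 8 were the 4 lowest proximal arrays in each of them.

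**Figure D1:**
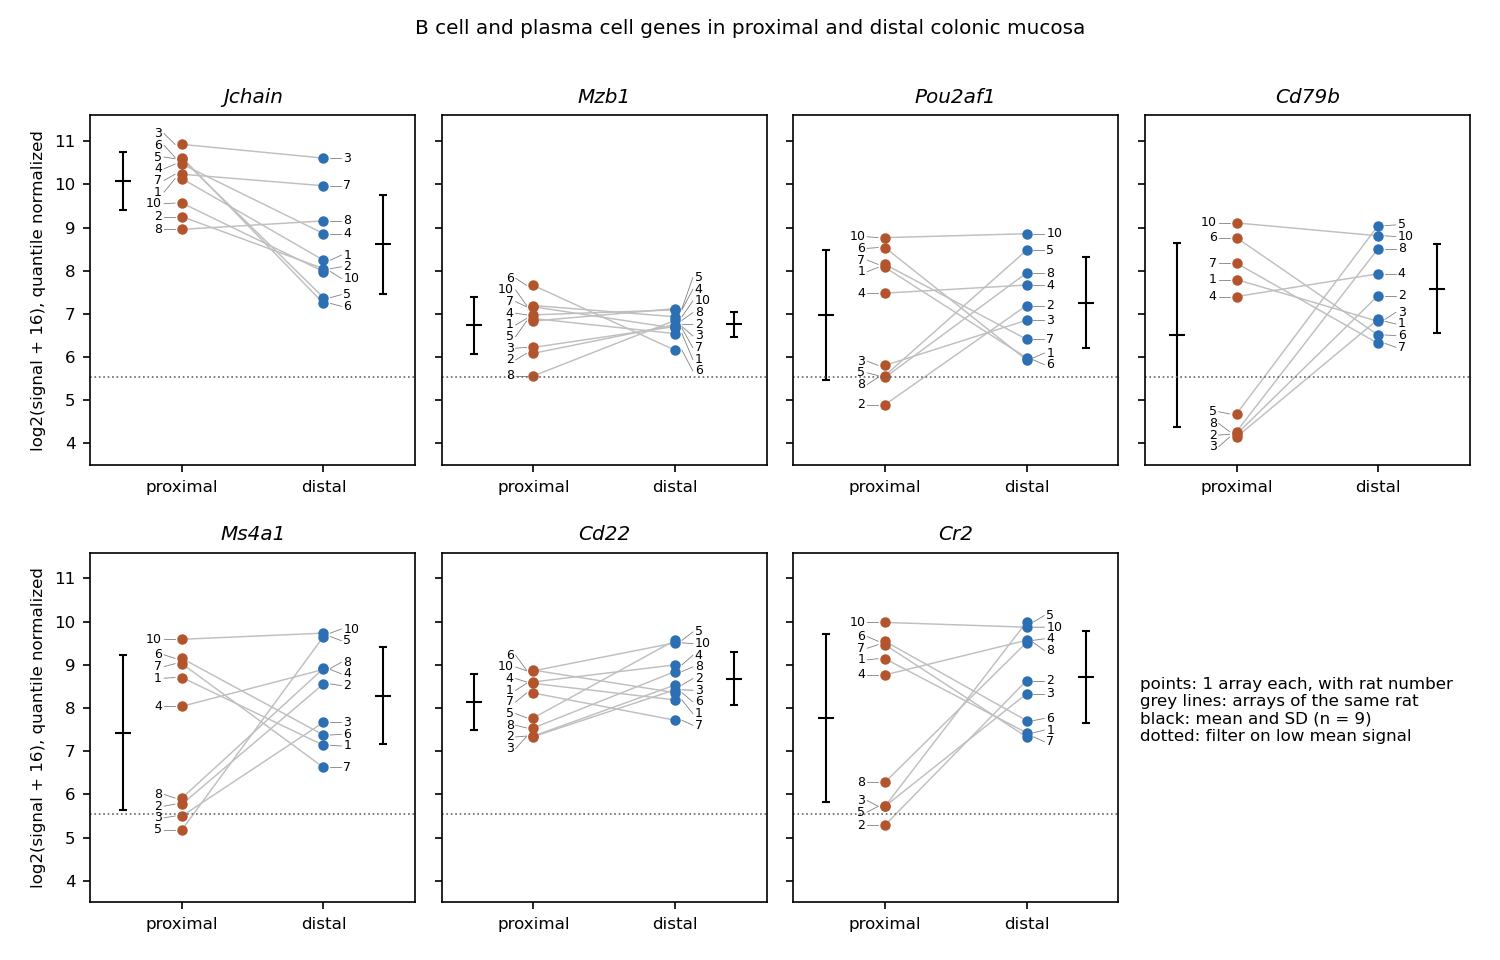
Log2 signal (log2 of intensity plus 16, quantile normalized) of the 7 measured genes in each proximal and distal array, each point labelled with its rat; black bars are the mean and SD of 9 arrays, grey lines join the arrays of a rat and the dotted line is the filter level of 5.54. In Cd79b, Ms4a1, Cr2, Pou2af1 and Cd22 the proximal arrays of rats 2, 3, 5 and 8 lie below all others with a gap above them, and in Jchain most lines fall from proximal to distal.

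The distal arrays covered a narrower range for Cd79b, Ms4a1 and Cr2, and any gap in them was narrower. Distal Cd79b had a lowest log2 signal of 6.32, a median of 7.42 and a highest of 9.04, and the widest gap between neighbouring arrays was 0.58. Distal Ms4a1 ran from 6.62 to 9.73 with a median of 8.56, with a widest gap of 0.89, and distal Cr2 from 7.33 to 9.99 with a median of 8.63 and a widest gap of 0.88. That gap was 33.2% of the distal range of Cr2, just under the 33.3% above which arrays were treated as separate sets. In 1 of the other Cr2 probe sets the distal arrays did lie in separate sets, with rats 1, 3, 6 and 7 at 5.65 or below and the rest at 6.60 or above. Distal Cd22 ran from 7.72 to 9.57 with a median of 8.53, a range of 3.60-fold that was wider than its proximal one. The lowest distal array was that of rat 7 for all 4 of these genes, and rats 5 and 10 held the highest 2 values of each.

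The plasma cell genes did not all follow the B cell genes. Pou2af1, the coactivator shared by B cells and plasma cells, did so in the proximal arrays: its lowest, median and highest values were 4.90, 7.48 and 8.77. Rats 2, 3, 5 and 8 had 4.90, 5.81, 5.57 and 5.53, and the lowest of the other 5 was 7.48 in rat 4. Mzb1, the chaperone, had proximal values from 5.56 to 7.66 with a median of 6.89, and rats 2, 3, 5 and 8 were again its 4 lowest arrays, but with 6.83 in rat 5 and 6.89 in rat 1 no gap separated them. Proximal Jchain ran from 8.96 in rat 8 to 10.92 in rat 3 with a median of 10.23, so rat 3, among the lowest for every B cell gene, was the highest for Jchain. The array of rat 5, with 10.59, was also above the Jchain median.

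In all, 6 of the 7 measured genes had the arrays of rats 2, 3, 5 and 8 as their 4 lowest proximal arrays, Jchain being the exception. The same 4 arrays were the lowest for 181 of all 11407 genes (1.59%). The 4 rats were picked out from these values, so the count describes the pattern and is no test of it. Rats 2, 3, 5 and 8 are not a group in the labels.

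The spread between arrays placed the B cell genes near the top of all genes in the proximal colon. Cd79b had a proximal SD of 2.13 (n = 9), which only 6 of 11407 genes exceeded (0.0526%). Cr2 had an SD of 1.95, exceeded by 11 genes, Ms4a1 an SD of 1.80, exceeded by 21, and Pou2af1 an SD of 1.51, exceeded by 56. Cd22, Jchain and Mzb1 had SDs of 0.64, 0.68 and 0.65, which 876, 788 and 847 genes exceeded. In the distal colon the SD was 1.03 for Cd79b, 1.07 for Cr2, 1.12 for Ms4a1 and 1.06 for Pou2af1, and between 120 and 164 genes exceeded each of them. Jchain had the largest distal SD of the 7, with 1.14, exceeded by 110 genes. That SD rests on the distal arrays of rats 3 and 7, with 10.61 and 9.97, and without them the other 7 ran from 7.24 to 9.15 with an SD of 0.70, below that of Cd79b, Cr2, Ms4a1 and Pou2af1 over the same arrays. The second Jchain probe set had an SD of 0.54 over the proximal and 0.57 over the distal arrays. A range above 3 on the log2 scale, an 8-fold span chosen after the values were seen, was found for 4 of the 7 genes in the proximal arrays (Cd79b, Cr2, Ms4a1 and Pou2af1) against 2.9% of all genes, and for Jchain and Ms4a1 in the distal arrays against 1.4%. Without the distal arrays of rats 3 and 7 neither distal range was above 3, with 1.91 for Jchain and 2.60 for Ms4a1.

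**Figure D2:**
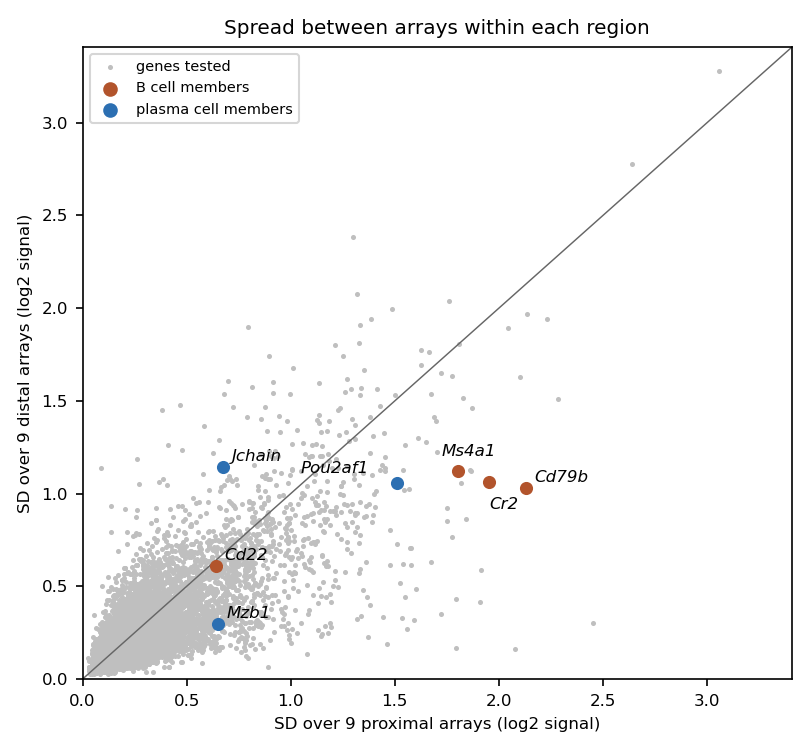
SD of log2 signal over the 9 proximal arrays (horizontal axis) against the SD over the 9 distal arrays (vertical axis) for the 11407 genes tested (grey), with the 7 measured genes in colour and a line of equal SD. Cd79b (2.13 against 1.03), Cr2, Ms4a1 and Pou2af1 lie far to the right and below the line, Jchain (0.68 against 1.14) lies above it and Cd22 (0.64 against 0.61) close to it.

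Whether the spread differed between the regions was tested with limma on each array's absolute deviation from the median of its region. No gene of 11407 passed at an adjusted p of 0.05, and 289 (2.53%) were below 0.05 before adjustment. Cd79b was among these: its mean absolute deviation was 1.84 in proximal and 0.86 in distal arrays (unadjusted p = 0.0346, limma adjusted p = 1). The corresponding values were 1.57 and 0.93 for Ms4a1 (unadjusted p = 0.0866), 1.68 and 0.91 for Cr2 (unadjusted p = 0.0932) and 0.52 and 0.88 for Jchain (unadjusted p = 0.199), all from the same limma fit. For Jchain the difference in mean absolute deviation was 0.36, and 0.02 without the proximal array of rat 3 and the distal arrays of rats 3 and 7. The unadjusted p of the B cell genes moved with single arrays. Without the proximal array of rat 4 it was 3.04e-05 for Cd79b, 7.08e-05 for Cr2 and 0.00171 for Ms4a1 (limma adjusted p = 0.330, 0.397 and 1.000), and over all single arrays left out it rose to 0.0946, 0.233 and 0.236. The array of rat 4 held the proximal median of these genes. Without it the median lies in the gap between the separate sets, so every proximal deviation is large. These low p values follow from that split and are not read as a wider spread. In simulated data this test made no call after adjustment even where the SDs had been set far apart, so the lack of calls is no result about the spread of any gene.

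No B cell gene passed the test of its mean level between the regions. Cd79b averaged 6.51 ± 2.13 in proximal and 7.58 ± 1.03 in distal arrays (SD, n = 9 each), a distal minus proximal difference of 1.08 ± 0.71 (SE) with a 95% interval from -0.41 to 2.56 (limma adjusted p = 0.288). The distal array was the higher one in 5 of 9 rats. This difference depended on how dim values were treated, and it was 1.92 with a pseudocount of 1 and 0.54 with a pseudocount of 64, without passing in either case. Ms4a1 averaged 7.43 ± 1.80 and 8.28 ± 1.12, a difference of 0.85 ± 0.64 with an interval from -0.48 to 2.18 (adjusted p = 0.355, distal higher in 6 of 9 rats). Cr2 averaged 7.77 ± 1.95 and 8.71 ± 1.07, a difference of 0.94 ± 0.67 with an interval from -0.46 to 2.33 (adjusted p = 0.328, distal higher in 5 of 9 rats), and its other 4 probe sets differed by 0.17 to 0.56 with adjusted p from 0.345 to 0.820. Cd22 had 8.14 ± 0.64 in proximal and 8.68 ± 0.61 in distal arrays, and its difference of 0.54 ± 0.27 had the interval closest to excluding 0, from -0.02 to 1.10 (adjusted p = 0.147).

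Within a rat, the difference between the regions varied widely for the B cell genes. Distal minus proximal Cd79b was 4.36 in rat 5, 4.23 in rat 8, 3.21 in rat 2 and 2.72 in rat 3, the rats with low proximal signal, and it was 0.53 in rat 4, -0.30 in rat 10, -0.97 in rat 1, -1.86 in rat 7 and -2.25 in rat 6. Rat 5 thus had 4.68 in proximal colon and the highest distal value of all rats, 9.04, while rat 6 had 8.76 and 6.51. Rat 10 was high in both regions. Ms4a1 showed differences from -2.40 in rat 7 to 4.47 in rat 5, Cr2 from -2.13 in rat 7 to 4.27 in rat 5, and Pou2af1 from -2.60 in rat 6 to 2.90 in rat 5. Because their proximal values lay in separate sets, no correlation between the regions is given for Cd79b, Ms4a1, Cr2, Cd22 and Pou2af1. For Jchain the proximal and distal values of the 9 rats had a Pearson r of 0.13 (exact permutation p = 0.745, adjusted p = 0.869 over the relations of all 7 genes) and a Spearman rho of -0.03 (exact permutation p = 0.948, adjusted p = 1), and for Mzb1 r was -0.33 (exact permutation p = 0.393, adjusted p = 0.654) and rho -0.28 (exact permutation p = 0.463, adjusted p = 0.901). Without rats 2 and 8, r was 0.28 for Jchain and -0.43 for Mzb1.

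Jchain was the 1 gene of the 7 whose level passed the test between the regions, against 30.8% of all 11407 genes (14.5% higher in proximal and 16.2% higher in distal colon). Its distal log2 signal had a lowest value of 7.24 in rat 6, a median of 8.24 and a highest value of 10.61 in rat 3. Proximal arrays averaged 10.08 ± 0.68 and distal arrays 8.61 ± 1.14 (SD, n = 9 each), so Jchain was 2.78-fold higher in the proximal colon, with a distal minus proximal difference of -1.47 ± 0.40 (SE), a 95% interval from -2.31 to -0.64 and a limma adjusted p of 0.00944. The proximal array was the higher one in 8 of 9 rats, rat 8 being the exception with 8.96 in proximal and 9.15 in distal colon. The regions overlapped, as they did for all 7 genes, whereas 6.89% of all genes had no overlap. The second Jchain probe set also passed, 1.87-fold higher in proximal colon with a difference of -0.90 ± 0.24 (limma adjusted p = 0.00868, proximal higher in 7 of 9 rats), against 26.5% of all probe sets that passed in either direction.

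The 3 arrays with high smooth muscle markers were also the highest in their regions for the probe set that stands for Jchain: 10.92 in the proximal array of rat 3, and 10.61 and 9.97 in the distal arrays of rats 3 and 7. In the second Jchain probe set the proximal array of rat 3 was the median. There distal rat 7 was highest with 7.53, but distal rat 3, with 7.22, was below rat 8 with 7.41. Without the 3 smooth muscle arrays the Jchain difference was -1.85 (limma adjusted p = 0.00025), with the excess still on the proximal side. Over the remaining arrays 1766 of all 11407 genes passed as higher in proximal and 1727 as higher in distal colon. Some markers of other cells were among those higher in proximal colon: 4 of 9 stroma and vessel markers passed (Lum, Pdgfra, Dcn and Col3a1, median of the list -0.92), as did 3 of 10 macrophage and dendritic cell markers (C1qa, Mrc1 and Tyrobp, median -0.36) and 1 of 11 smooth muscle markers (Mylk, median -0.52). The macrophage marker Cd14 passed in the other direction, higher in distal colon by 0.59 (limma adjusted p = 0.00120). Lum, a matrix proteoglycan, differed by -1.79 (limma adjusted p = 0.00562), about as much as Jchain. The part of these cells in the Jchain difference was not tested. Over all 18 arrays the stroma and vessel markers (9 of 10 measured) were also highest in these arrays, with a mean log2 signal of 10.10 in the proximal array of rat 3 and of 9.12 and 9.41 in the distal arrays of rats 3 and 7. The sum of the smooth muscle signals ran from 2756 to 66091 in proximal and from 2382 to 13991 in distal arrays, and none of the 11 markers lay below the filter level.

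Neither of the other genes grouped as plasma cell genes, which both varied with the B cell genes in the distal arrays, passed between the regions. Mzb1 averaged 6.73 ± 0.65 in proximal and 6.76 ± 0.30 in distal arrays, a difference of 0.03 ± 0.22 with an interval from -0.44 to 0.49 (limma adjusted p = 0.950). The sign of this small value turned negative when the deposited scaling was kept (-0.09). Distal Mzb1 covered 6.16 to 7.12, a 1.95-fold range. Pou2af1 averaged 6.98 ± 1.51 and 7.26 ± 1.06, a difference of 0.28 ± 0.55 with an interval from -0.88 to 1.44 (limma adjusted p = 0.756). Its distal values ran from 5.93 in rat 6 to 8.86 in rat 10.

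Across the 9 distal arrays the B cell genes were high in the same rats. Ms4a1 and Cr2 had a Pearson r of 0.977 (exact permutation p = 2.48e-05, adjusted p = 0.000347 over 42 relations, those not given included) and a Spearman rho of 0.967 (exact permutation p = 0.000165, adjusted p = 0.00116), with r = 0.962 without the arrays of rats 1 and 7. Cd79b and Ms4a1 had an r of 0.964 (exact permutation p = 9.92e-05, adjusted p = 0.000595) and a rho of 0.967 (exact permutation p = 0.000165, adjusted p = 0.00116), with r = 0.931 without rats 5 and 10. All 10 pairs among Cd79b, Ms4a1, Cd22, Cr2 and Pou2af1 had an r between 0.90 and 0.98 and passed by both measures. Mzb1 followed them with r from 0.69 to 0.83 and passed with 4 of these 5 genes by Pearson's r and with all 5 by Spearman's rho. Jchain had an r between -0.46 and 0.09 with the other 6 genes and passed with none of them. In all, 14 of 21 distal pairs passed by r and 15 by rho, and in the proximal arrays a correlation is given for the pair of Jchain and Mzb1 alone, since each other pair holds a gene whose arrays lay in separate sets (r = 0.54, exact permutation p = 0.134, adjusted p = 0.181; rho = 0.37, exact permutation p = 0.336, adjusted p = 0.428).

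**Figure D3:**
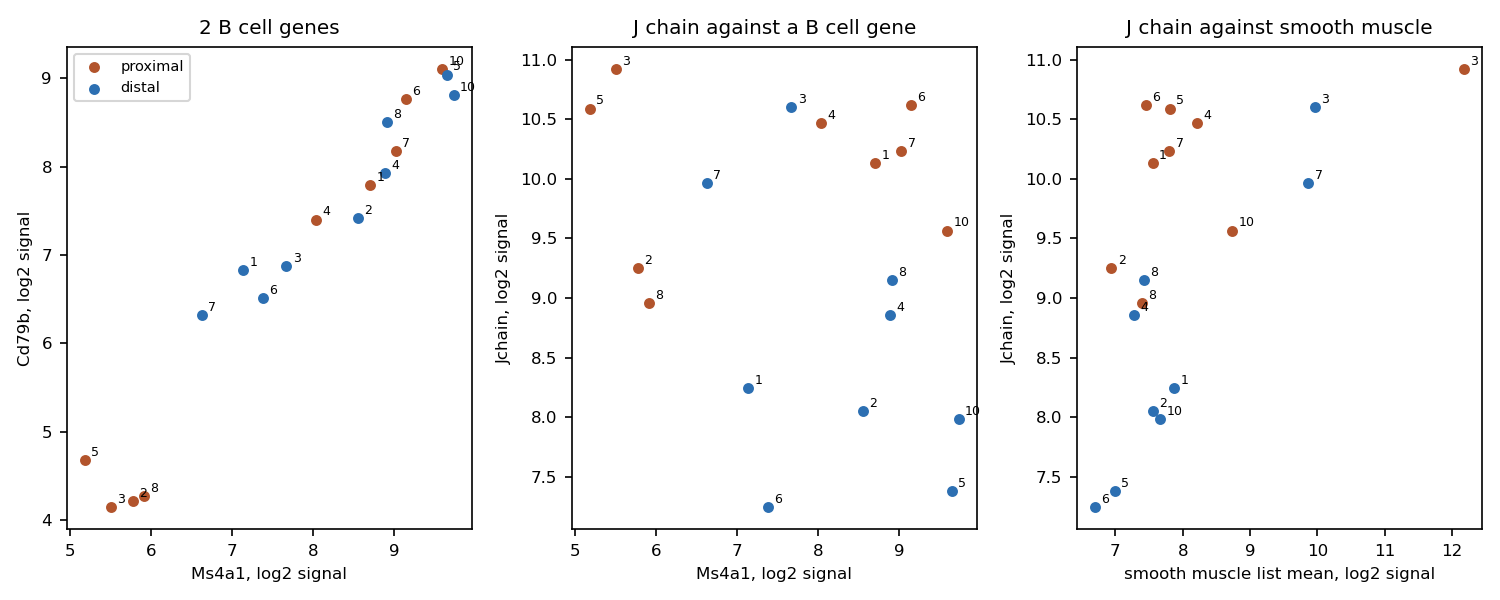
Log2 signal of Cd79b against Ms4a1 (left), of Jchain against Ms4a1 (middle) and of Jchain against the mean log2 signal of the smooth muscle list (right), each point 1 array with its rat number. Cd79b and Ms4a1 lie along a line in the distal arrays (r = 0.964) and in separate sets of 4 and 5 in the proximal arrays, and Jchain is highest in the proximal array of rat 3 and the distal arrays of rats 3 and 7.

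The B cell genes also moved with genes of leucocytes in general, B cells among them, and with T cell markers. In the distal arrays the mean log2 signal of general leucocyte genes (10 of 10 with a probe set) had an r of 0.90 to 0.96 with Pou2af1, Cd79b, Ms4a1, Cd22 and Cr2. That of T cell markers (15 of 16) had an r of 0.83 to 0.88 with them. All were past an adjusted p of 0.05 over 56 relations by exact permutation and by both measures. For Cd22 and the leucocyte genes, for example, r was 0.900 (exact permutation p = 0.00138, adjusted p = 0.0120) and rho 0.900 (exact permutation p = 0.00203, adjusted p = 0.0108), with r = 0.940 without rats 1 and 6. Without rats 1 and 6 the leucocyte mean kept an r of 0.87 to 0.94 with these genes. The T cell mean fell to an r of 0.63 to 0.71 without rats 5 and 10, so its relation leans on those arrays. Summed over its members, the leucocyte signal ran from 2515 to 11925 in proximal and from 2986 to 12115 in distal arrays, and the T cell signal from 923 to 4735 and from 929 to 4546. The T cell markers Cd2, Cd8b and Cd28 and the leucocyte gene Cd52 had a mean below the filter level but are part of these means and sums. In the proximal arrays Mzb1 followed the leucocyte genes (r = 0.858, exact permutation p = 0.00352, adjusted p = 0.0131; rho = 0.950, exact permutation p = 0.000353, adjusted p = 0.00494; r = 0.793 without rats 6 and 10). The part of other leucocytes in the B cell signals was not tested.

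Distal Jchain had an r of -0.06 with the leucocyte mean (exact permutation p = 0.873, adjusted p = 0.937) and passed with the smooth muscle mean by Pearson's r but not by rho. Its r with the smooth muscle mean was 0.879 (exact permutation p = 0.00317, adjusted p = 0.0131), and rho was 0.733 (exact permutation p = 0.0311, adjusted p = 0.0697). Without the arrays of rats 3 and 7, r was 0.50, so the relation rests on those arrays. In the proximal arrays r was 0.51 (exact permutation p = 0.150, adjusted p = 0.290; rho = 0.55, exact permutation p = 0.133, adjusted p = 0.275). No relation of any of the 7 genes with the epithelium markers passed in the distal arrays, where r ran from -0.46 to -0.15.

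**Figure D4:**
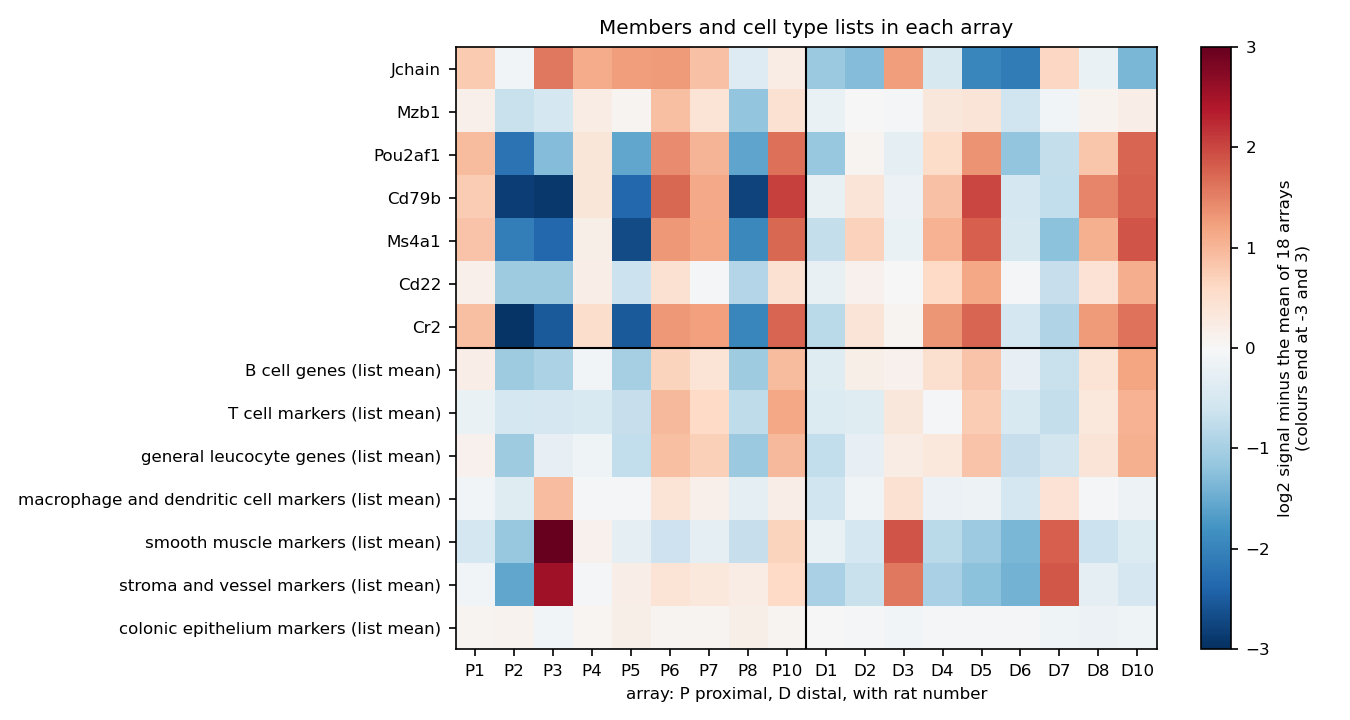
Log2 signal of the 7 genes and mean log2 signal of 7 lists of cell type genes in each array (P proximal, D distal, with the rat number), as the difference from the mean of the 18 arrays; colours end at -3 and 3. The proximal columns of rats 2, 3, 5 and 8 are low for the B cell genes, the columns of rat 10 and of distal rat 5 are high for the B cell, T cell and leucocyte rows, and the smooth muscle and stroma rows are high in P3, D3 and D7, where Jchain is also high.

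The other B cell genes gave no call between the regions with quantile normalization and no block for the rat. Of 18 B cell genes listed, 11 were tested with limma and 0 passed in either direction (1 had an unadjusted p below 0.05), beside 30.8% of all 11407 genes. Their median distal minus proximal difference was 0.63 against 0.01 over all genes. With the rat as a block 1 of the 11 passed: Fcrla, an Fc receptor-like protein of B cells, was higher in distal colon by 0.76 (limma adjusted p = 0.0404, and 0.0626 without the block). Fcrla also passed without the block when arrays were centred on their medians instead of quantile normalized (0.80, limma adjusted p = 0.0401). Fcmr, the receptor for IgM, had proximal log2 signals from 6.29 to 10.35 and distal ones from 7.89 to 10.78, with a difference of 0.98 ± 0.56 (limma adjusted p = 0.208). Blnk, the adaptor below the B cell receptor, stayed between 9.28 and 10.62 in all arrays, with a difference of -0.11 (limma adjusted p = 0.635). Of the 11, 7 had rats 2, 3, 5 and 8 as their 4 lowest proximal arrays, named here after their values were seen: Blk, Cd37, Fcer2, Fcrla, Bank1, Fcmr and Cd180. So did 6 of the 9 tested general leucocyte genes and 5 of the 12 tested T cell markers, so the pattern was not particular to B cell genes.

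Among 14 tested genes of B cell receptor signalling, 2 passed as higher in proximal and 0 as higher in distal colon, beside 14.5% and 16.2% of all 11407 genes. The median difference was 0.01. Pik3ap1, an adaptor that links the receptor to phosphoinositide 3-kinase, fell by 0.61 from proximal to distal colon (limma adjusted p = 0.00695, lower in distal colon in 8 of 9 rats). Bcl10, a signalling protein between the receptor and NF-kB that many cells make, fell by 0.19 (limma adjusted p = 0.0358, lower in 9 of 9 rats), a call that was lost with the deposited scaling (adjusted p = 0.129). Cd81, a partner of Cr2 in the B cell coreceptor, had a difference of 0.29 that did not pass (limma adjusted p = 0.0940), but that was 0.40 and passed without the 3 smooth muscle arrays (adjusted p = 0.000129). Ptpn6 was the 1 of these 14 genes with the same 4 lowest proximal arrays.

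Of the follicle and germinal centre genes, 11 of 18 were tested, with a median difference of 0.09. Ltbr, the lymphotoxin receptor of stromal and epithelial cells, was 1.12-fold higher in distal colon (limma adjusted p = 0.0271), and Mef2b, a germinal centre transcription factor, was 1.31-fold higher in proximal colon (limma adjusted p = 0.0267). Ltbr did not pass when the deposited scaling was kept (adjusted p = 0.758) or when arrays were centred on their medians (adjusted p = 0.0539). Nor did it pass when the 3 smooth muscle arrays were left out (adjusted p = 0.0613). Ccl20, the chemokine that epithelium over follicles makes, had a difference of -0.04 (limma adjusted p = 0.844). Chosen after their values were seen, the follicle chemokines Cxcl13, Ccl19 and Ccl21 had proximal SDs of 1.82, 1.77 and 1.91, and distal SDs of 1.06, 0.76 and 0.59. The other tested genes of the list had lower proximal SDs, from 0.10 for Ltbr to 1.18 for Ccr6. Their distal SDs ran from 0.11 for Ltbr to 1.22 for Ccr6. Proximal Ccl21, which draws lymphocytes into lymphoid tissue, ran from 6.11 to 11.49 and distal Ccl21 from 6.54 to 8.17, with a difference of -1.26 ± 0.60 (limma adjusted p = 0.132). Cxcl13, Ccl19, the cytokine gene Ltb and the chemokine receptor gene Ccr6 had rats 2, 3, 5 and 8 as their 4 lowest proximal arrays.

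The wider plasma cell list held calls in both directions. Of 9 tested genes, 1 was higher in distal and 2 in proximal colon, beside 16.2% and 14.5% of all 11407 genes. The median difference was -0.02, and 0 of 9 had the same 4 lowest proximal arrays as the B cell genes. Fkbp11, a folding enzyme of secretory cells, was 1.41-fold higher in proximal colon (limma adjusted p = 0.0116). Xbp1, the transcription factor of secretory cells that goblet cells also use, was 1.13-fold higher in proximal colon (limma adjusted p = 0.0158, in 9 of 9 rats), a call lost with the deposited scaling (adjusted p = 0.0563). Creld2, a stress-induced protein of the endoplasmic reticulum, was 1.34-fold higher in distal colon (limma adjusted p = 0.000156, in 9 of 9 rats). Ssr4, a subunit of the translocon complex, had a difference of 0.05 (limma adjusted p = 0.699). Tnfrsf17, also in this list, had a difference of -0.23 that did not pass (limma adjusted p = 0.198). It passed with the deposited scaling (adjusted p = 0.0443) and without the proximal arrays of rats 3 and 6 (adjusted p = 0.0437). Of 15 antibody genes listed, Iglc1, a light chain constant region, was the 1 with a named probe set, and its difference was 0.30 ± 0.30 (limma adjusted p = 0.502). Its proximal values ran from 6.00 in rat 8 to 8.17 in rat 6, and rats 2, 3, 5 and 8 were its 4 lowest arrays.

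Genes that draw or serve IgA-producing cells, which release the polymers that Jchain links, were tested for 6 of 14 listed. Ccl28, an epithelial chemokine for IgA plasma cells, was 1.70-fold higher in distal colon (limma adjusted p = 0.00427, in 9 of 9 rats), the opposite direction to Jchain. Its lowest distal value, 8.56, was close to its highest proximal one, 8.69. Tnfsf13 (APRIL), a survival factor of plasma cells, was 1.37-fold higher in distal colon (limma adjusted p = 5.34e-05, in 9 of 9 rats), with proximal values from 9.07 to 9.60 and distal values from 9.67 to 9.90, which did not overlap. Pigr, the epithelial receptor that carries Jchain-linked IgA and IgM to the lumen, differed by 0.03 ± 0.04 (limma adjusted p = 0.600). Ccr10, Il5, Il6 and Il10 had a mean below the filter level and were not tested.

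Markers of other cells are given list by list, beside 30.8% of all genes that passed in either direction. Of the T cell markers 0 of 12 passed in limma (0 at an unadjusted p below 0.05), with a median difference of 0.06, and Lck and Cd3g, T cell signalling proteins, differed by 0.06 and 0.05 (limma adjusted p = 0.894 and 0.951). Of the general leucocyte genes 0 of 9 passed (0 at an unadjusted p below 0.05), with Rac2 at -0.26 and Arhgdib at 0.40 (limma adjusted p = 0.391 and 0.550). Of the macrophage and dendritic cell markers 1 of 10 passed: Cd14, a coreceptor for bacterial lipopolysaccharide, was 1.49-fold higher in distal colon (limma adjusted p = 0.000605), a call lost with the deposited scaling (adjusted p = 0.105), while the complement gene C1qa differed by -0.58 (limma adjusted p = 0.245). With the rat as a block the macrophage receptor gene Mrc1 also passed, higher in proximal colon (-0.42, limma adjusted p = 0.0418). Of the 11 smooth muscle and 9 stroma markers 0 passed (0 at an unadjusted p below 0.05), with median differences of -0.39 and -0.49. Mylk and Myh11, of the contractile machinery, differed by -0.55 and -0.39 (limma adjusted p = 0.164 and 0.679), and the collagen genes Col3a1 and Col1a1 by -0.77 and -0.42 (limma adjusted p = 0.412 and 0.618). Mylk passed with the rat as a block (limma adjusted p = 0.0205), and it and 4 stroma markers passed without the 3 smooth muscle arrays, as given beside Jchain. Of the 14 epithelium markers 7 passed, 1 as higher in distal and 6 as higher in proximal colon. With the rat as a block the keratin gene Krt18 passed too, as higher in distal colon (0.17, limma adjusted p = 0.0325). Tff3, a goblet cell peptide, was 1.33-fold higher in distal colon (limma adjusted p = 0.000431), a call that did not hold with the deposited scaling (adjusted p = 0.120). The intestinal transcription factors Cdx2 and Cdx1 and the enterocyte proteins Krt20 and Vil1 were 1.55, 1.43, 1.40 and 1.34-fold higher in proximal colon (limma adjusted p = 0.00467, 0.00325, 0.000921 and 0.000438), and the keratins Krt8 and Krt19 differed by 0.04 and 0.02 (limma adjusted p = 0.370 and 0.730).

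The genes most like Cd22 and Jchain over all 18 arrays were sought, after each region's mean was removed, among 11290 named genes. For Cd22 they were Blk, a B cell kinase (r = 0.946), Ighvl1 (0.928), Cyb561a3 (0.927), Cd180, a B cell receptor of the Toll-like family (0.926) and the leucocyte GTPase Rac2 (0.925). Because proximal Cd22 lay in separate sets, the values over the 9 distal arrays alone are also given: they were between 0.926 and 0.974. Ighvl1, which was not in the list of antibody genes, ran from 5.93 to 11.18 in proximal and from 8.16 to 11.38 in distal arrays. Its distal minus proximal difference was 1.17 (limma adjusted p = 0.213). For Jchain the 5 were Igfbp3 (0.881), Col6a5 (0.873), Tcf21 (0.866), Efemp1 (0.862) and Igfbp4 (0.857), growth factor binding proteins, matrix proteins and a transcription factor of mesenchymal cells, and over the distal arrays alone r was 0.903 to 0.957. These values describe likeness over the same arrays, with no test. For Jchain the arrays highest in their regions, proximal rat 3 and distal rats 3 and 7, were not left out. The distal r of Jchain with the smooth muscle mean fell from 0.879 to 0.50 without distal rats 3 and 7. Whether the likeness of Jchain to these 5 genes holds without those arrays was not tested. Igfbp4 also passed between the regions, with a difference of -0.61 (limma adjusted p = 0.0434), and the other 4 of the 5 did not.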

How the data were processed

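The authors deposited linear intensities, 1 per probe set and array, and the submitters' processing notes name MAS5 as the tool. Its version and its target for scaling arrays are not given in these sources. MAS5 gives 1 signal per probe set after background handling, and low signals are noisy. After control probe sets were dropped, 31042 remained, and their values were taken as log2(value + 16) and quantile normalized, since array means differed. A filter then removed the dimmest 30% by mean (log2 signal below 5.54). Names came from the platform annotation, which can be old: 20826 probe sets had 1 symbol, 436 several and 9780 none, and the RefSeq table (GRCr8) matched 20758 and changed 0 symbols. The probe set of highest mean stood for a gene.

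Regions were compared with limma 3.58.1 (R 4.3.3; lmFit, eBayes with trend, two-sided, Benjamini-Hochberg over all probe sets tested, no block). The spread test ran limma on absolute deviations from the region median. Both were tested on simulated data. Correlations used exact permutation of pairings (two-sided, scipy 1.17.1, Python 3.11.15), adjusted within families of 42, 7 and 56, and repeated without the 2 arrays farthest from the median of the first measure. None was given where the widest gap exceeded 33.3% of the range with at least 3 arrays on each side, a rule chosen after the data were seen. Motifs were exact matches.

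The members, lists and tests were chosen with earlier results of these data known. The text names all members; of each list, up to 4 genes per direction that passed and up to 2 of highest mean; and the 5 genes most like the B cell and the plasma cell member of highest mean. The number of arrays limits the precision. Rat numbers pair the arrays, since both came from 1 animal per the labels; deviations from the region means correlated between both arrays of a rat with a median r of 0.23 (lowest 0.000945, highest 0.569, and over 0.1 for 6 of the 9), while arrays of different rats had a median r of -0.03. No array was a copy of another, with at most 0.00643% identical values in a pair. Rat 9 was not analysed here. Alternatives were other scalings, pseudocounts of 1 and 64, other filters, rat as a block, each array left out, the proximal arrays of rats 3 and 6 left out and, added after the data were seen, the 3 arrays of high smooth muscle signal left out.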

Additional observations from a re-analysis of the deposited data

How the results depend on the processing

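Jchain kept its direction and its call under every alternative run: distal minus proximal was -1.72 to -1.30 (limma adjusted p 0.00119 to 0.0198) with each of the 18 arrays left out, and -1.85 to -1.28 (limma adjusted p 0.00025 to 0.0344) under the other 9. The level differences of Cd79b, Ms4a1, Cr2, Cd22 and Pou2af1 stayed positive and uncalled throughout, with Cd79b between 0.54 and 1.92 and Pou2af1 between 0.02 and 0.50. Mzb1, near 0, turned negative with the deposited scaling (-0.094), with a pseudocount of 64 (-0.00497) and without the 3 smooth muscle arrays (-0.018), and ran from -0.12 to 0.14 with each array left out. The spread difference of Cd22 turned to 0.00314 with the deposited scaling. Up to 2 genes, none of the 7, passed the spread test when a single array was left out. The replicate block (rat) gave Jchain an adjusted p of 0.00596 and changed no call of the 7 genes, while Fcrla, Mylk, Mrc1 and Krt18 passed with it, as given in the text. With the deposited scaling 450 genes were higher in distal colon against 1853, so distal genes were 22.5% of calls against 52.8%, and the median of all genes was -0.10. With arrays centred on their medians, Fcrla and Cd81 also passed as higher in distal colon. Low values of Cd79b, Ms4a1, Cr2 and Pou2af1 near the filter level are bounded by noise, which limits how far their proximal range can be read.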
